A study of Homo sapiens with 3 samples.

Results

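The IL-6 axis between stromal and myeloma cells was described through 10 genes: the ligand IL6, the receptor chains IL6R, IL6ST, OSMR and LIFR, the kinases JAK1, JAK2 and TYK2, the transcription factor STAT3 and the feedback inhibitor SOCS3. They were taken by symbol, and all 10 were found among the 43913 gene symbols of the counts. Single cells were profiled by Drop-seq, a droplet method that counts transcripts by unique molecular identifiers (UMIs) at their 3′ ends, in 3 libraries: a culture of MM.1S, an established multiple myeloma line, a culture of HS-5, an established bone marrow stromal line, and a coculture of both lines kept together for 4 h. No other agent or genetic change is named in the labels for any library. Each condition had 1 library, so no difference below has a replicate check, and all intervals are 95% intervals that cover counting error only.

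Interleukin-6 is a cytokine that bone marrow stromal cells secrete and that myeloma cells are known to use for growth and survival. It binds its own receptor chain, IL6R, and this complex recruits the shared chain gp130, the product of IL6ST. Kinases of the JAK family bound to gp130 then phosphorylate STAT3, which enters the nucleus and switches on target genes, among them SOCS3, whose product blocks the kinases. OSMR and LIFR pair with gp130 in the receptors of the related cytokines oncostatin M and leukemia inhibitory factor.

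Cells of the coculture were assigned to a line by their UMIs of genes at least 50-fold different between the monocultures, 81 for MM.1S and 229 for HS-5, with the 10 members and the pathway and response genes below left out of these sets. Of 3856 coculture cells, 1642 were MM.1S and 2105 HS-5, while 106 that carried RNA of both lines and 3 with too few UMIs were set aside. All 3947 MM.1S and 3732 HS-5 monoculture cells fell on the side of their own line by the same rule, which is no check of it, since the genes were chosen on these cells. The median cell held 2201 UMIs in the MM.1S monoculture, 669 in MM.1S cells of the coculture, 971.5 in the HS-5 monoculture and 958 in HS-5 cells of the coculture. Between 39 and 76 barcodes were shared by any 2 libraries, and the counts of members past 2-fold in each line did not change without them. Mitochondrial genes held 6.82% of MM.1S UMIs in monoculture and 4.04% in coculture, and ribosomal protein genes 19.4% and 13.1%. With these genes left out of the totals the log2 ratios in MM.1S were 2.72 for IL6R, 2.16 for STAT3, 3.72 for SOCS3, 0.85 for IL6ST and -1.30 for JAK1.

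The labelled cell types were set beside their markers. Of these, 6 of the 9 plasma cell and 5 of the 9 stromal markers were among the line-specific genes, so in the coculture the split itself fixed much of their contrast. Summed over 9 plasma cell markers, the level was 10103 CPM (UMIs of a gene per 1000000 UMIs of the population) in MM.1S monoculture and 6891 in MM.1S cells of the coculture, against 208 and 226 CPM in HS-5. SDC1 was the exception among them, at 135 and 126 CPM in HS-5 against 38.1 and 124 CPM in MM.1S. JCHAIN and MZB1 made up most of the MM.1S sum, at 6664 and 2526 CPM alone and 4145 and 1777 CPM in coculture. SDC1, POU2AF1 and PRDM1 were higher in MM.1S cells of the coculture than in MM.1S alone, and the other plasma cell markers were lower. The 9 stromal markers summed to 8544 and 10555 CPM in HS-5 and to 2285 and 2713 CPM in MM.1S, where LGALS1 and VIM made up most of the sum. In HS-5 the contractile gene TAGLN was near 0 and COL3A1 stood at 4.88 and 4.83 CPM. Markers of macrophages, T cells and endothelium summed to at most 14.8 CPM in any population.

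The ligand was detected in the stromal line. IL6 (ENSG00000136244.11, chr7:22725884-22732002, plus strand, GRCh38) stood at 1209 CPM in HS-5 monoculture (1182 to 1237, 7429 UMIs) and at 1203 CPM in HS-5 cells of the coculture (1160 to 1247, 2989 UMIs). The MM.1S monoculture held 0 IL6 UMIs among 10433017, which allows up to 0.288 CPM at 3 counts. The HS-5 level was thus at least 4206-fold higher than in MM.1S. In the MM.1S cells of the coculture 10 IL6 UMIs were found, a level of 7.53 CPM (3.61 to 13.8). By CPM the order was HS-5 in either culture, whose intervals overlapped, then MM.1S in coculture and last MM.1S alone. The last step rests on the 10 UMIs, which are compared with free RNA of HS-5 cells below.

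In HS-5 cells, coculture left the IL6 level at 0.994 times that of monoculture (0.953 to 1.04). The share of cells in which IL6 was seen was equally close: with each cell thinned to 500 UMIs, 36.0% of 3515 monoculture cells held an IL6 UMI (34.4 to 37.6%) and 36.2% of 1806 coculture cells (33.9 to 38.4%). Without thinning the shares were 53.1% and 52.7%. For MM.1S the thinned shares were 0 of 3947 monoculture cells, which allows up to 0.076%, and 4 of 1197 coculture cells, or 0.334% (0.0911 to 0.853%). On a scale of raw UMIs per cell IL6 went from 1991 per 1000 HS-5 cells to 1420, a ratio of 0.713 (0.683 to 0.744). On that scale the median gene of HS-5 had a log2 ratio of -0.50, beside -0.49 for IL6.

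**Figure D1:**
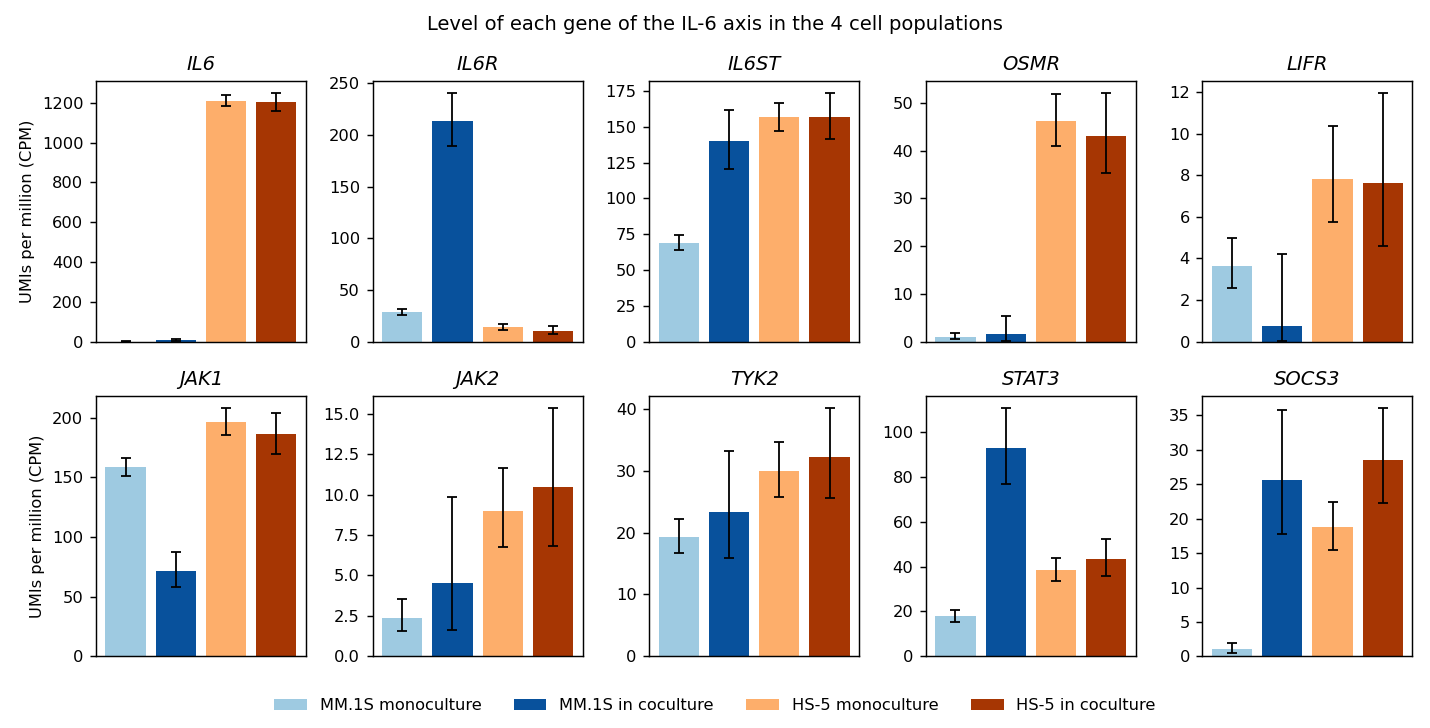
Level of each gene in CPM (linear axes from 0, 1 scale per gene) in MM.1S and HS-5 cells, each alone and in coculture, with bars for the summed UMIs of 1 library and error bars for exact 95% Poisson intervals. IL6 stands at 1209 and 1203 CPM in the HS-5 bars and near 0 in MM.1S, and IL6R, STAT3 and SOCS3 are higher in the MM.1S coculture bar than in the MM.1S monoculture bar.

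Whether the 10 IL6 UMIs in MM.1S cells of the coculture exceeded free RNA of HS-5 cells was examined through the 229 HS-5-specific genes. Transcripts of HS-5 made up an estimated 1.69% of the UMIs of these MM.1S cells. For the HS-5-specific genes the level in MM.1S cells was a median of 2.32% of that in HS-5 cells of the same library, with quartiles of 1.19 and 3.90%. These ratios ran from 0 to 168% and took no account of the level in MM.1S alone. RRAD, at 130%, stood at 0.671 CPM in MM.1S alone and at 92.6 CPM in MM.1S cells of the coculture. The ratio of IL6 was 0.626% (0.30 to 1.15%), and 19 of the 229 genes were at or below it. Inside this interval were MMP1 (0.822%), MT2A (0.819%), TFPI2 (0.669%) and MMP3 (0.842%), the highest of these genes in HS-5 cells of the coculture. The next highest, GREM1, had a ratio of 4.78%. The summed estimate, which includes genes such as RRAD, implied 20.4 CPM of IL6 from free RNA, above the 7.53 CPM observed, and its subtraction left 0. The IL6 UMIs in MM.1S cells were thus at or below the background and were not read as expression by these cells. Of the 10 UMIs, 9 lay in the 1152 MM.1S cells with less than 0.05 of their line-specific UMIs from HS-5, at 8.99 CPM (4.11 to 17.1). The 490 cells with 0.05 to 0.2 held 1, at 3.06 CPM (0.0776 to 17.1). These intervals overlapped, and whether the IL6 UMIs followed the HS-5 share was not tested.

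The HS-5-specific genes closest to IL6 in level all had ratios below the median of 2.32%. CXCL8, a neutrophil chemokine, stood at 1243 CPM in HS-5 cells of the coculture and had a ratio of 2.12%. For STC1, a secreted glycoprotein, the ratio was 1.43%, and for the cytokine IL1B it was 0.881%. The activin subunit INHBA and the growth factor FGF2 had ratios of 1.62 and 1.79%. All 5 were above IL6, and the ratio of IL1B lay inside the interval of IL6.

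**Figure D2:**
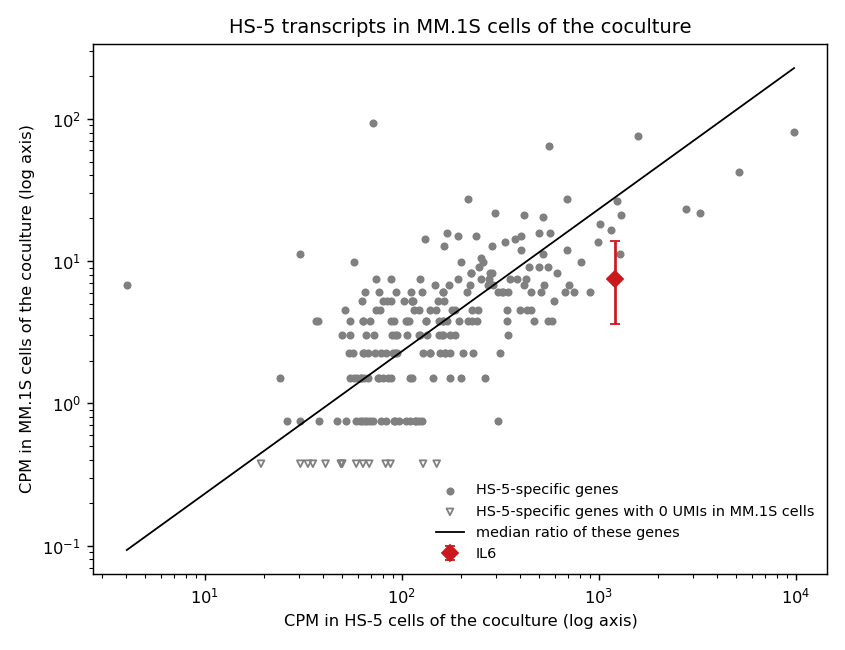
Level of HS-5-specific genes in MM.1S cells of the coculture (vertical, CPM, log axis) against their level in HS-5 cells of the coculture (horizontal, CPM, log axis), 1 point per gene, with open triangles for genes with 0 UMIs in MM.1S cells and the line at their median ratio of 2.32%. IL6, with its 95% Poisson interval, lies below the line.

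Among HS-5 cells IL6 was unevenly spread. With cells thinned to 1000 UMIs, 47.1% of 1802 monoculture cells held no IL6 UMI, 22.2% held 1, 24.0% held 2 to 4 and 6.66% held 5 or more. In the 1002 HS-5 cells of the coculture the corresponding shares were 46.6, 25.6, 23.0 and 4.79%. The tenth of cells with the most IL6 held 43.7% of its UMIs in monoculture and 45.6% in coculture. The variance of IL6 was 2.73 times its mean in monoculture, against a median of 1.17 over the 48 genes whose mean lay within 1.25 times of it, and 3 of these 48 were above IL6.

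**Figure D3:**
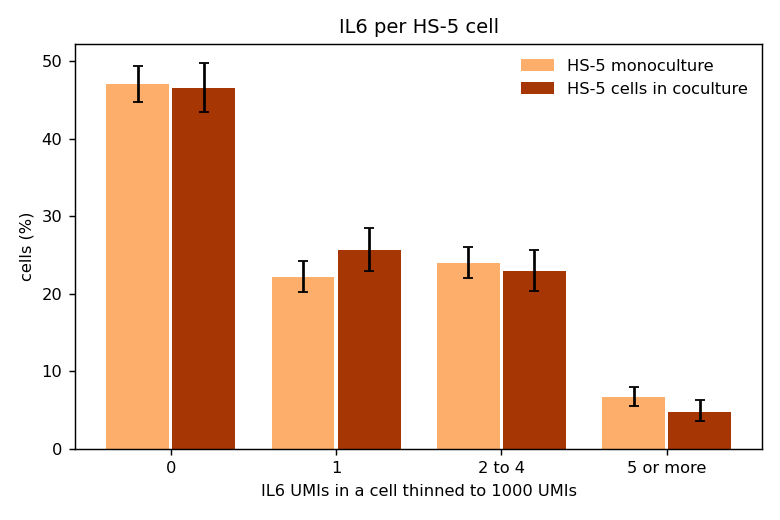
Share of HS-5 cells (%) by the number of IL6 UMIs in a cell thinned to 1000 UMIs, in monoculture (1802 cells) and coculture (1002 cells), with exact 95% binomial intervals. The intervals of the 2 cultures overlap in each class, and 47.1 and 46.6% of cells hold none.

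The genes whose counts went with those of IL6 from cell to cell were cytokines and an antioxidant enzyme. Over 942 genes, Spearman's rho with IL6 across the 1802 thinned HS-5 monoculture cells had a median of -0.0041 and was highest for CXCL8 (0.346), IL1B (0.269), the mitochondrial superoxide dismutase SOD2 (0.209), the granulocyte growth factor CSF3 (0.202) and the chemokine CXCL3 (0.180). In HS-5 cells of the coculture the same 5 genes had the 5 highest values, from 0.15 for CSF3 to 0.278 for CXCL8. The cells of a culture share 1 library, and counts of 1 or 2 UMIs per cell limit such values, which are given as a description.

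The promoter of IL6 is shown for the letters that NF-κB, a factor known to drive these inflammatory genes, can bind. The motif GGGNNTTTC was searched on both strands in the 250 bases before the start of transcription, in RefSeq promoters of GRCh38.p14. It was found in 4.16% of 35116 promoters. Of IL6 and the 5 genes above, 5 had a sequence in the table, and the motif was found in IL6 and CXCL3. This search was chosen after the correlated genes were seen, and a match is only a run of letters. The promoter of IL6 lies at chr7:22726950-22727199, plus strand, and that of CXCL3 at chr4:74038690-74038939, minus strand. In both, capitals mark the motif, whose first base lies at -73 in IL6 and at -79 in CXCL3 relative to the start.
IL6: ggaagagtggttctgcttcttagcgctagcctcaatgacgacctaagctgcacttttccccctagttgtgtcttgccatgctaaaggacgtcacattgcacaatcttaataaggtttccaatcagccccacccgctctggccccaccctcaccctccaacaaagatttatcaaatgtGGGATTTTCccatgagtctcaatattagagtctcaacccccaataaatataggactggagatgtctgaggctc
CXCL3: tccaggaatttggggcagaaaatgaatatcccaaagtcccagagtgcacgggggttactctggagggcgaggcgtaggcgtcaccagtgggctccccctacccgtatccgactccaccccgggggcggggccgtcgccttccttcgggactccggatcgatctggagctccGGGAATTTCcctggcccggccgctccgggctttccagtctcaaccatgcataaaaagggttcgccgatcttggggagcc

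The ligand-binding receptor chain was highest in the myeloma cells of the coculture. IL6R (ENSG00000160712.12, chr1:154405193-154469450, plus strand) stood at 28.4 CPM in MM.1S monoculture (25.2 to 31.8, 296 UMIs) and at 214 CPM in MM.1S cells of the coculture (190 to 240, 284 UMIs). This was a 7.54-fold higher level (6.38 to 8.90), with a log2 ratio of 2.87. In HS-5 it stood at 14 CPM alone (11.2 to 17.3) and at 10.5 CPM in coculture (6.83 to 15.3), and these intervals overlapped. MM.1S thus held 2.03 times the HS-5 level in the monocultures (1.59 to 2.61) and 20.4 times in the coculture (13.7 to 31.8).

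The same difference in IL6R was seen per cell. At 500 UMIs per cell, 1.37% of 3947 MM.1S monoculture cells held an IL6R UMI (1.03 to 1.78%) and 11.1% of 1197 coculture cells (9.39 to 13.0%). In raw UMIs per 1000 MM.1S cells IL6R went from 75 to 173, a 2.31-fold higher value (1.95 to 2.72), although the cells' totals were lower. On that scale the median gene of MM.1S had a log2 ratio of -1.48. By depth, coculture cells of under 500, 500 to under 1000 and at least 1000 UMIs stood at 199, 233 and 199.8 CPM, and their intervals overlapped. Free RNA of HS-5 could give 0.0829% of the IL6R level in MM.1S cells. The 1152 MM.1S cells with less than 0.05 of their line-specific UMIs from HS-5 held 189 CPM (163 to 218) and the 490 cells with 0.05 to 0.2 held 291 CPM (235 to 356). These intervals did not overlap, and the part of this share in the difference was not tested.

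The signalling chain gp130 was found in both lines. IL6ST (ENSG00000134352.19, chr5:55935095-55994993, minus strand) stood at 69.1 CPM in MM.1S alone (64.2 to 74.3) and 140 CPM in MM.1S cells of the coculture (121 to 162). The ratio was 2.03 (1.72 to 2.38), so its interval spanned 2-fold, and in raw UMIs per cell the direction turned, to 0.620 (0.525 to 0.730). It also fell below 2-fold with equal weight per cell, with a pseudocount of 5, under median-of-ratios scaling, without ribosomal protein and mitochondrial genes, after subtraction of the median or of the length trend, with at least 500 genes per cell and in MM.1S cells with an HS-5 share under 0.05. HS-5 held 157 CPM in each culture. In the monocultures HS-5 was 2.27-fold higher than MM.1S for IL6ST (2.06 to 2.5), and in the coculture 1.12-fold (0.938 to 1.34).

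The partner chains of the related cytokines were stromal or low. OSMR (ENSG00000145623.12, chr5:38845858-38945596, plus strand) stood at 46.2 CPM in HS-5 alone and 43.1 CPM in coculture, against 0.958 CPM in MM.1S alone and 2 UMIs in MM.1S cells of the coculture. The HS-5 monoculture level was 48.2-fold that of MM.1S (25.8 to 102). LIFR (ENSG00000113594.9, chr5:38474963-38608354, minus strand) was low throughout, at 7.81 and 7.65 CPM in HS-5, 3.64 CPM in MM.1S alone and 1 UMI in MM.1S cells of the coculture.

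Among the kinases only JAK1 was past 2-fold in either line. JAK1 (ENSG00000162434.11, chr1:64833229-64966504, minus strand) stood at 158 CPM in MM.1S alone (151 to 166) and 71.5 CPM in MM.1S cells of the coculture (57.9 to 87.5), a 2.21-fold lower level (1.80 to 2.75). At 500 UMIs per cell, 7.55% of MM.1S monoculture cells and 2.84% of coculture cells held a JAK1 UMI. HS-5 stood at 197 CPM alone (186 to 208) and 186 CPM in coculture (170 to 204). TYK2 (ENSG00000105397.13, chr19:10350529-10380676, minus strand) stood at 19.3 and 23.3 CPM in MM.1S and at 29.96 and 32.2 CPM in HS-5. Its MM.1S ratio was 1.21 (0.802 to 1.77), and its direction turned under median-of-ratios scaling, without the length trend and in raw UMIs per cell. JAK2 (ENSG00000096968.13, chr9:4984390-5128183, plus strand) was below the minimum mean of 10 CPM in both lines, at 2.40 and 4.52 CPM in MM.1S and 8.95 and 10.5 CPM in HS-5.

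The transcription factor was higher in the myeloma cells of the coculture. STAT3 (ENSG00000168610.14, chr17:42313324-42388568, minus strand) went from 17.9 CPM in MM.1S alone (15.4 to 20.7, 187 UMIs) to 92.6 CPM in MM.1S cells of the coculture (77.0 to 111, 123 UMIs), a 5.17-fold higher level (4.08 to 6.52). In raw UMIs per cell the ratio was 1.58 (1.25 to 2.00). HS-5 stood at 38.4 CPM alone (33.7 to 43.6) and 43.5 CPM in coculture (35.6 to 52.5). The order of the lines was therefore opposite in the 2 settings, with HS-5 2.14-fold above MM.1S in the monocultures (1.76 to 2.61) and below it in the coculture.

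The feedback inhibitor was near absent from MM.1S alone and higher in MM.1S cells of the coculture. SOCS3 (ENSG00000184557.4, chr17:78356778-78360077, minus strand) had 11 UMIs in the MM.1S monoculture, 1.05 CPM (0.526 to 1.89), and 34 UMIs in MM.1S cells of the coculture, 25.6 CPM (17.7 to 35.8). The ratio was 24.3 (12.02 to 53.1). SOCS3 reached the minimum mean of 10 CPM only through its coculture level, so it had to be higher there to be counted. It did not reach the minimum with at least 500 genes per cell or with cells thinned to 500 UMIs. In HS-5 it stood at 18.7 CPM alone (15.5 to 22.5) and 28.6 CPM in coculture (22.3 to 36.0), a ratio of 1.53 (1.12 to 2.07), while in raw UMIs per cell the ratio was 1.09 (0.803 to 1.48). HS-5 was 17.8-fold above MM.1S in the monocultures (9.56 to 36.6) and 1.12-fold in the coculture (0.732 to 1.73).

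Counted together, 6 of the 10 genes had a mean of at least 10 CPM in MM.1S cells, and a log2 ratio, with a pseudocount of 1, of at least 1 in either direction was called past 2-fold. IL6R, IL6ST, STAT3 and SOCS3 were higher, against 19.0% of the 7839 genes at that level, and JAK1 was lower, against 5.79% of them. IL6, OSMR, LIFR and JAK2 were below the minimum. Over all 7839 genes the median log2 ratio was 0.24, with 1490 genes higher and 454 lower, whereas median-of-ratios scaling gave a median of -0.25 with 685 higher and 1314 lower, and subtracting the median gave 1015 and 767. IL6R, STAT3 and SOCS3 stayed past 2-fold higher and JAK1 lower under both of these. In HS-5 cells 8 genes reached the minimum and 0 were past 2-fold, against 1.2% of 8814 genes higher and 1.8% lower. SOCS3 was the only one of the 8 whose counting interval left out equal levels. Between the monocultures 7 of the 10 reached the minimum, and IL6, IL6ST, OSMR and STAT3 were lower in MM.1S and none higher, against 38.1% of 8734 genes lower and 15.3% higher.

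**Figure D4:**
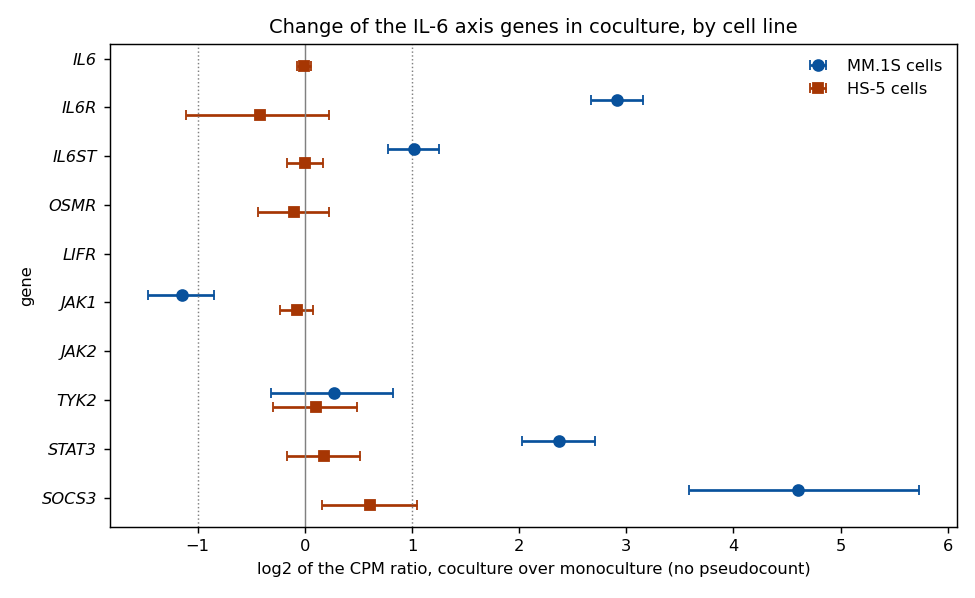
Ratio of coculture to monoculture (log2 of the CPM ratio without a pseudocount, dotted lines at 2-fold) for each gene that reached the minimum of 10 CPM in a line, MM.1S as circles and HS-5 as squares, with exact 95% counting intervals. IL6R, STAT3 and SOCS3 lie right of 2-fold in MM.1S, JAK1 lies left of it, and the HS-5 points lie between the dotted lines.

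Longer transcripts had higher ratios in MM.1S cells, with Spearman's rho of 0.279 between the log2 ratio and the longest annotated transcript over 7733 genes, and lower ones in HS-5, with -0.275 over 8704 genes. These values are across genes, which are not independent replicates. Among the 1560 genes within 1.25 times of the length of IL6R, 27.0% were past 2-fold higher in MM.1S and the median log2 ratio was 0.49. For the lengths of STAT3 and of SOCS3 the shares were 24.5% and 14.7%. With the trend in length removed, the log2 ratios in MM.1S were 2.35 for IL6R, 1.83 for STAT3, 0.47 for IL6ST and -1.61 for JAK1.

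The rest of the family and pathway was followed through 38 further genes, of which 17 reached the minimum in MM.1S cells and 22 in HS-5. In MM.1S 1 was past 2-fold higher and 0 lower, against 19.0% and 5.79% of all genes, with a median log2 ratio of 0.27 against 0.24 over all genes. In raw UMIs per cell 0 of 12 were higher and 10 lower, with a median log2 ratio of -1.55. On that scale 39 of all 6284 genes at the minimum were higher and 4634 lower, with a median of -1.48. By CPM the gene past 2-fold higher was CISH, a SOCS family inhibitor of cytokine receptors. It stood at 4.70 CPM alone (49 UMIs) and 31.6 CPM in coculture (42 UMIs), a ratio of 6.73 (4.35 to 10.4). Like SOCS3 it reached the minimum through its coculture level. Among the next highest were the receptor chain IL27RA with a log2 ratio of 0.93, the inhibitor SOCS6 with 0.86 and the STAT inhibitor PIAS2 with 0.58. The lowest were ADAM10, a protease that sheds cell surface receptors, with -0.61, PIAS4 with -0.46, the phosphatase PTPN1 with -0.26, the adaptor GRB2 with -0.02 and PIAS1 with -0.01.

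The promoter of CISH is shown because it holds letters that STAT factors can bind. It was picked for its matches, and a match is only a run of letters. The motif TTCNNNGAA, which reads the same on both strands, was found in 6.57% of the 35116 RefSeq promoters within 250 bases before the start. Of 23 promoters of listed genes past 2-fold higher in MM.1S, 2 held it (8.70%), those of CISH and IRF1. Of 28 promoters of the other listed genes at the minimum level, 1 held it (3.57%), that of ICAM1. All 10 members of the axis had at least 1 promoter in the table, 18 in all, and 2 promoters, both of LIFR, held the motif. The 2 SOCS3 windows did not cover the bases just before its GENCODE start, and their lack of a match says only that the letters are not in these windows. The CISH window held 4 matches, with first bases at -241, -230, -129 and -112 relative to the start. It lies at chr3:50611775-50612024, minus strand, and capitals mark the matches.
CISH: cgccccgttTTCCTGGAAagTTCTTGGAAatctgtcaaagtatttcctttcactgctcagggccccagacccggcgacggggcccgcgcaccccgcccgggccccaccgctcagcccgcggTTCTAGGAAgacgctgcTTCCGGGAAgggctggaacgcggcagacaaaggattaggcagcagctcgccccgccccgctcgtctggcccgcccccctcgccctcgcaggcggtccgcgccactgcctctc

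In HS-5 cells 0 of the 22 pathway genes were past 2-fold higher and 1 was lower, against 1.2% and 1.8% of all genes, with a median log2 ratio of -0.09 against -0.03 over all genes. The lower gene was IL11, a cytokine of the IL-6 family, at 50.96 CPM alone (45.5 to 56.9) and 24.5 CPM in coculture (18.8 to 31.5). It was no longer past 2-fold with at least 500 genes per cell, with a pseudocount of 5 and after subtraction of the median. CLCF1, another ligand of the family, had a log2 ratio of -0.71, the adaptor SHC1 one of -0.56, STAT5B one of -0.47 and the phosphatase PTPN2 one of -0.37. Among those at the other end were SOCS4 with 0.32, the ligand LIF with 0.23, SOCS5 with 0.21 and ADAM10 with 0.17.

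Genes known to respond to STAT3 in various cells, 41 in all, were counted in the same way. Like the members, they were chosen with earlier results of these data known, so the counts of both are only a description. In MM.1S cells 25 reached the minimum, of which 15 were past 2-fold higher and 2 lower, with a median log2 ratio of 1.14, against 19.0% and 5.79% of all genes at that level and a median of 0.24. BCL3, BCL2L1, CEBPB, IRF1, TNFRSF1A, BATF and MUC1, 7 of the 15, were under 10 CPM in monoculture and had to be higher in coculture to be counted. Many of these genes also respond to NF-κB or to stress, and their counts do not tell the inputs apart. The highest ratios were those of IRF1, an interferon response factor, at 9.20 CPM alone and 122 CPM in coculture, and of BCL3, an IκB family regulator, at 1.05 and 22.6 CPM. The receptor TNFRSF1A (log2 ratio 2.47), the survival factor MCL1 (2.43) and the stress gene GADD45B (2.33) followed. With median-of-ratios scaling 12 were higher and 3 lower. In raw UMIs per cell 1 of 20 was higher and 9 lower, with a median log2 ratio of -0.70. On that scale 39 of all 6284 genes at the minimum in MM.1S were higher and 4634 lower, with a median of -1.48.

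Not all response genes were higher in MM.1S. PIM1, a survival kinase, stood at 51.4 CPM alone and 22.6 CPM in coculture, and the growth regulator MYC at 788 and 378 CPM. The log2 ratios of PIM2, the protease inhibitor TIMP1 and the adhesion molecule ICAM1 were -0.64, -0.38 and -0.34. In HS-5 cells 23 response genes reached the minimum, 1 was past 2-fold higher and 1 lower, with a median log2 ratio of -0.04, against 1.2% and 1.8% of all genes and a median of -0.03. PIM1 was the higher one, at 4.88 CPM alone and 16.9 CPM in coculture, a ratio of 3.46 (2.11 to 5.73). It too reached the minimum only through its coculture level. In raw UMIs per cell 0 of 22 response genes were past 2-fold higher and 6 lower, with a median log2 ratio of -0.52. On that scale 13 of all 8342 genes at the minimum in HS-5 were higher and 961 lower, with a median of -0.50. By CPM, PIM1 was followed by CEBPD (log2 ratio 0.44), VEGFA (0.41), MYC (0.38) and ICAM1 (0.30). FOS, an immediate early factor, was the lower one, at 33.9 CPM alone and 3.62 CPM in coculture (9 UMIs), and BCL2L1 (-0.87), KLF6 (-0.66), TWIST1 (-0.63) and PIM3 (-0.54) came next.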

How the data were processed

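The authors deposited a table of UMI counts per gene and cell barcode for each of the 3 Drop-seq libraries, 1 per culture. The submitters' processing notes name STAR 2.5.3a, featureCounts 1.6.4 of Subread, UMI-tools 1.0.0, SAMtools 1.9, Cell Ranger 3.0.2 and the build GRCh38 (hg38); whether counting used strand is not given in the sources used here, so reads of members and of genes on the opposite strand, such as STEAP1B at IL6 (148 and 156 CPM in HS-5), cannot be told apart. The tables held 10433182 (MM.1S), 6143448 (HS-5) and 3981392 (coculture) UMIs over 3994, 3865 and 3963 barcodes.

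Barcodes with at least 200 genes were kept. Coculture cells were assigned to MM.1S where the HS-5 share of their line-specific UMIs was under 0.2 and to HS-5 where it was over 0.8, with at least 5 such UMIs; line-specific genes had at least 50 CPM in their line. No other doublet caller was run. UMIs were summed per population and scaled to CPM. No test was made, since each condition had 1 library: levels carry exact Poisson, ratios exact conditional and shares exact Clopper-Pearson intervals of 95%, which limit counting error alone. A level of 0 was bounded by 3 counts. Genes were called past 2-fold (log2 ratio of at least 1, pseudocount 1) at a mean of at least 10 CPM. Free RNA of a line was estimated from the summed excess of its specific genes. Levels of different genes were not ranked, since 3′ counts depend on the transcript. Longest transcripts and coordinates came from GENCODE 29.

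The members and gene lists were chosen with earlier results of these data known. Named were all members, the 5 highest and 5 lowest ratios of each list per line, the 5 genes most correlated with IL6 (thinned mean of at least 0.2 UMIs) and the 5 HS-5-specific genes nearest to IL6; 1 gene that this rule names is not reported here. The alternatives were other cell filters, scalings, pseudocounts, minimum levels, line limits and depths, subtraction of free RNA and removal of the median or of the length trend; limiting MM.1S cells to an HS-5 share under 0.05, thinning all cells to 500 UMIs, raw UMIs per cell and leaving out shared barcodes were chosen after seeing the data. Scripts ran in Python 3.11.15 with numpy 2.4.6, scipy 1.17.1, pandas 2.3.3, statsmodels 0.14.6 and matplotlib 3.10.9, and were tested on simulated data.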

Additional observations from a re-analysis of the deposited data

Results flagged for a closer look

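Response genes whose ratios had opposite signs in the 2 lines, each with a counting interval that left out equal levels, were taken up here. The difference itself was not tested, since each culture had 1 library. Lower in MM.1S cells of the coculture and higher in HS-5 cells were PIM1, with a difference in log2 ratio (MM.1S minus HS-5) of -2.76, MYC with -1.44 and TIMP1 with -0.58. Higher in MM.1S and lower in HS-5 were FOS (3.48), MCL1 (2.62), BCL2L1 (2.39), CEBPB (2.38), CCND1 (2.07), PIM3 (1.64) and KLF6 (1.54). In raw UMIs per cell the MM.1S sign of PIM3, BCL2L1, CCND1, FOS and KLF6 and the HS-5 sign of TIMP1 and MYC turned, as did that of FOS in MM.1S at 500 UMIs per cell and that of TIMP1 in HS-5 without the length trend.

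The 106 coculture cells that carried RNA of both lines entered no comparison. They held IL6 at 503 CPM (399 to 625), above the MM.1S cells and below the HS-5 cells of the same library, and IL6R at 55.9 CPM (25.6 to 106).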

How the results depend on the processing

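In MM.1S cells 4 members were past 2-fold higher and 1 lower. The count of higher members was 2 when cells needed at least 500 genes. There IL6ST had a log2 ratio of 0.99 and SOCS3 fell under the minimum level. In raw UMIs per cell the count of higher members was 1. On that scale 39 of all 6284 genes at the minimum in MM.1S were higher and 4634 lower, with a median log2 ratio of -1.48. The count of lower members was 2 at a minimum of 1 CPM, where LIFR was added, as was IL6 to the higher members, of which there were then 5, and 2 in raw UMIs per cell, where TYK2 was added and IL6ST turned to a log2 ratio of -0.68. Across these and the other alternatives the MM.1S log2 ratios ran from 1.18 to 3.04 for IL6R, from 0.63 to 2.36 for STAT3 and from -2.80 to -1.09 for JAK1. In HS-5 cells no alternative brought a member past 2-fold. The share of HS-5 cells with an IL6 UMI at a depth of 1000 UMIs was 52.9% alone and 53.4% with MM.1S, and 53.1% and 52.7% without thinning. No paired analysis was possible because each condition had 1 library. Depth limits SOCS3 in MM.1S, with 11 and 34 UMIs, and leaves OSMR, LIFR and JAK2 there without a readable ratio.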

Other observations

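Cells of 1 library were also set side by side by whether they held a UMI of the receptor or of the ligand, as a description, since a UMI is more often seen in deeper cells. Of the MM.1S cells of the coculture, 235 held an IL6R UMI (median 839 UMIs) and 1407 did not (median 650). STAT3 stood at 142 CPM in the former (97.7 to 199) and at 82.2 CPM in the latter (66.1 to 101), with intervals that overlapped. SOCS3 stood at 25.8 and 25.6 CPM. In the HS-5 monoculture the 1980 cells with an IL6 UMI (median 1274 UMIs) held SOCS3 at 22.0 CPM (17.8 to 26.8) and the 1752 cells without one (median 794) at 11.1 CPM (6.76 to 17.1). IL6ST stood at 168 and 130 CPM in these cells. The summed STAT3 response genes went the other way, at 3776 CPM with an IL6 UMI (3718 to 3834) and 4257 CPM without one (4162 to 4353). In HS-5 cells of the coculture SOCS3 stood at 29.9 CPM with an IL6 UMI and 26.6 CPM without one. There IL6ST stood at 153 and 164 CPM. The response genes summed to 3441 CPM (3348 to 3536) and 3347 CPM (3233 to 3463), with intervals that overlapped.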
